A study of Mus musculus with 4 samples.

Results

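Ion channel genes were examined in cultured neuroepithelial cells of the mouse telencephalon, the embryonic forebrain. The members were all genes on the array whose symbol starts with Kcn (potassium channels), Cacn (calcium channels) or Scn followed by a digit (sodium channels). A gene counted if at least 1 probe set, a group of short probes for 1 transcript, named it and no other gene. The rule found 252 of 45037 probe sets, which stood for 119 genes. Each gene was represented by its probe set with the highest mean signal, and 74 of the 119 genes were bright enough to be tested, among 12952 genes tested in all. The cells came from ICR mouse embryos and were grown on polyornithine and fibronectin in N2-supplemented medium with basic FGF at 10 ng/ml, which holds precursors in division. In 1 group of 2 arrays they were taken at embryonic day 11.5 (E11.5) and cultured for 1 day, and in the other at embryonic day 14.5 (E14.5) and cultured for 4 days. Embryonic age and time in culture therefore changed together and cannot be told apart. The labels name no genotype, transgene, sorting step or pool size, and do not say that replicates came from separate cultures, so the p-values rest on a spread between arrays that may be technical.

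Voltage-gated channels are membrane pores that open when the voltage across the membrane changes. Sodium channels carry the rising phase of the action potential, potassium channels end it and set the resting voltage, and calcium channels turn it into a chemical signal. Each pore-forming protein works with auxiliary subunits that set its amount at the surface and its gating. Neurons hold many kinds of voltage-gated channels, whereas astrocytes are known for inwardly rectifying and two-pore-domain potassium channels, which clear potassium from around active neurons and keep the membrane near the potassium potential. Oligodendrocyte precursors are glial cells that carry both inward rectifiers and voltage-gated potassium channels.

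Signals were scaled so that all arrays had the same trimmed mean, since this ranged from 103 to 252 as deposited and was lower on both E14.5 arrays. Log2 signals correlated at 0.969 and 0.975 within groups and at 0.885 to 0.909 between groups; these are correlations over probe sets, and probe sets are no replicates. A pseudocount of 12.8 was added before log2 was taken. Differences are log2 values, E14.5 minus E11.5, given with the standard error (n = 2 arrays per group throughout) and an adjusted p from a limma fit over all probe sets, with a threshold of 0.05. A gene that passed is called higher or lower here, and both words refer to the scaled signal. Markers of several cell types moved with the groups. Of 14 neuronal markers 13 were lower at E14.5, and their summed signal was 17607 to 18553 on the E11.5 arrays and 5433 to 5680.1 on the E14.5 arrays. All 9 tested of 10 astrocyte markers were higher (3851 to 4800.1 against 16197 to 20649.8), as were all 8 measured markers of oligodendrocyte precursors (686 to 906 against 19002 to 20948). Microglia and macrophage markers were higher for 7 of 10 (236 to 276 against 1553 to 1603). Precursor markers were higher for 4 of 8 and lower for 1 (19817 to 21622 against 29781 to 31165). Of 10 endothelial and pericyte markers 5 were tested and 2 were higher, Plvap and Cspg4 (205 to 327 against 631 to 709). Cspg4 is shared with the oligodendrocyte precursor list and had signals of 9.67 and 4.16 against 357 and 429.7. It made up most of the E14.5 sum, so the rise of the sum says little about endothelial cells and pericytes. Meningeal markers were lower for 3 of 6 (1166 to 1185 against 568 to 631), and erythroid markers for 2 of 5 (386 to 858 against 91.1 to 104). No marker had a signal of 0. Both E11.5 arrays were below the pseudocount for 3 oligodendrocyte precursor markers (Gpr17, Cspg4, Omg), for 2 microglial markers (C1qa, C1qc) and for 2 endothelial or pericyte markers. Fewer cells of a type and less RNA per cell cannot be told apart in such bulk samples, and the part of these markers in the channel results was not tested.

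Channel genes changed in both directions, and the counts differed by ion. Of 46 tested potassium channel genes 11 were higher at E14.5 and 2 lower, while of 26 tested calcium and sodium channel genes none was higher and 10 were lower. The other 2 tested members are noncoding transcripts from potassium channel loci, of which 1 was higher. The counts by ion include genes that were tested only because 1 group was bright, with the other below the signal limit for testing. Of the potassium genes that passed, 5 were of this kind (Kcnip3, Kcne1l, Kcna6 and Kcnn4, higher, and Kcnk5, lower). Of the calcium and sodium genes that passed, 3 were (Cacng2, Cacnb2 and Cacna1g, all lower). Over all 74 genes, 12 were higher and 12 lower, that is 16.2% each, against a background of 14.3% higher, 13.6% lower and 27.8% in either direction among all genes tested, so the shares over all members were near the background. By ion, 23.9% of potassium genes were higher and 4.35% lower, and 38.5% of the calcium and sodium genes were lower. The median difference was 0.16 for potassium, -0.41 for calcium and -1.15 for sodium channel genes, beside 0.03 for all genes tested. These shares and medians are descriptions of the lists, and no test was made of the difference between ions. Without scaling of the arrays, which moved the median of all genes to -0.67, the counts were 6 higher and 15 lower, so the even split depends on the scaling. With a filter at the 60th percentile of signal, which left 31 channel genes, 7 were lower and 12 higher.

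**Figure D1:**
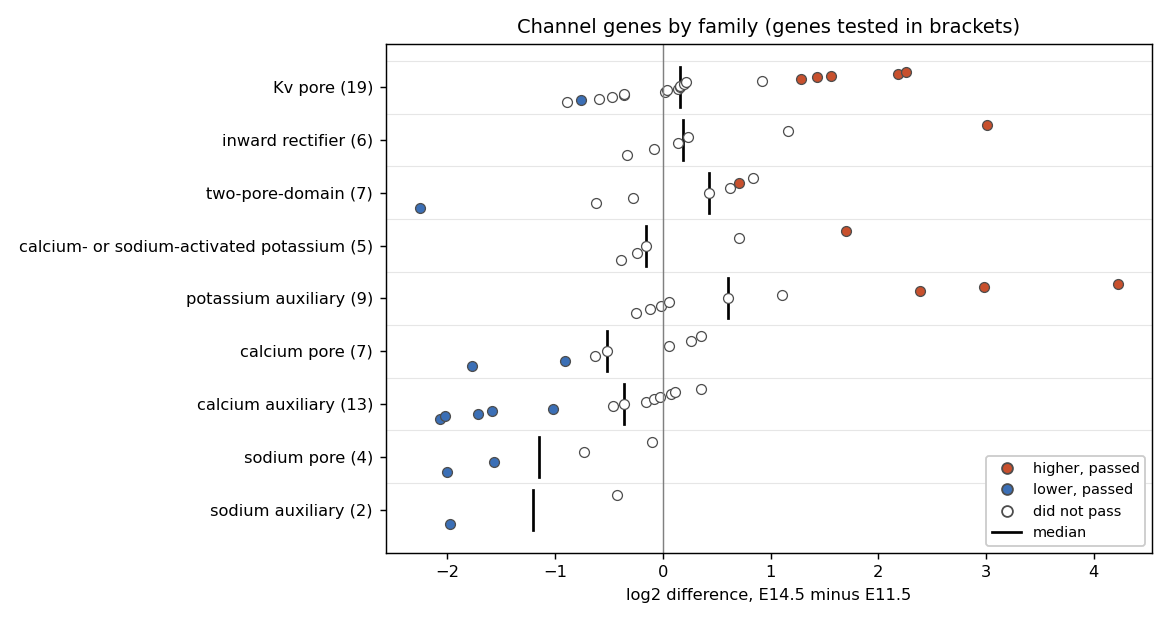
Log2 difference (E14.5 minus E11.5) of each tested channel gene, by family, apart from the 2 noncoding members, which are not drawn. Each point is 1 gene, filled where it passed the test, and the vertical bar is the median of the family. All points of the calcium and sodium families that passed lie below 0, and 11 of the 13 potassium genes that passed lie above it.

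The largest difference was found for an auxiliary subunit of potassium channels. Kcnip3 encodes a calcium-binding protein that attaches to Kv4 channels and also represses transcription in the nucleus. At E11.5 its scaled signal was 12.6 and 9.44, and at E14.5 it was 519 and 354. Both E14.5 arrays lay far above both E11.5 arrays, with a log2 difference of 4.22 ± 0.25 (adjusted p = 3.8e-06). The E11.5 mean of 11 lay below the pseudocount, so the size of this difference depends on it: an eighth of the pseudocount gave 5.10 and a larger one 3.15. Kcne1l, also known as Kcne5, encodes a single-span subunit that alters the gating of voltage-gated pores. Its signals were 25 and 17.3 at E11.5 and 379.6 and 168 at E14.5, a difference of 2.98 ± 0.35 (adjusted p = 0.00021). The E14.5 arrays differed from each other by more than for most members, but neither came near the E11.5 values. Kcnmb4 encodes the neural beta subunit of the large-conductance calcium-activated potassium channel. It went from 204 and 226 to 996 and 1405 (2.39 ± 0.18, adjusted p = 1.4e-05), with both E14.5 arrays far above both E11.5 arrays. Kcnma1, the pore that Kcnmb4 joins, read 45.1 and 65.5 against 40.2 and 37.2 and missed the threshold (-0.39 ± 0.30). Another tested probe set of Kcnma1 did not pass either and had the opposite sign (0.60 ± 0.36), and the value averaged over probe sets was 0.11. Kcnmb4os2, a noncoding transcript from the opposite strand of the Kcnmb4 locus, was also higher, at 42.6 and 52.2 against 115 and 186 (1.41 ± 0.27, adjusted p = 0.0041), a call that was lost without scaling of the arrays (0.72). Whether its probe set is read by RNA of Kcnmb4 itself was not tested. Of the 9 tested auxiliary subunits 3 were higher and none was lower; the other 6 ran from -0.25 (Kcnip1) to 1.11 (Kcne4). Kcne4 had 9.75 and 87.5 on the E14.5 arrays, so that its mean rested on 1 array; it passed without E14.5 replicate 1 (2.18) and was at 0.03 without E14.5 replicate 2.

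**Figure D2:**
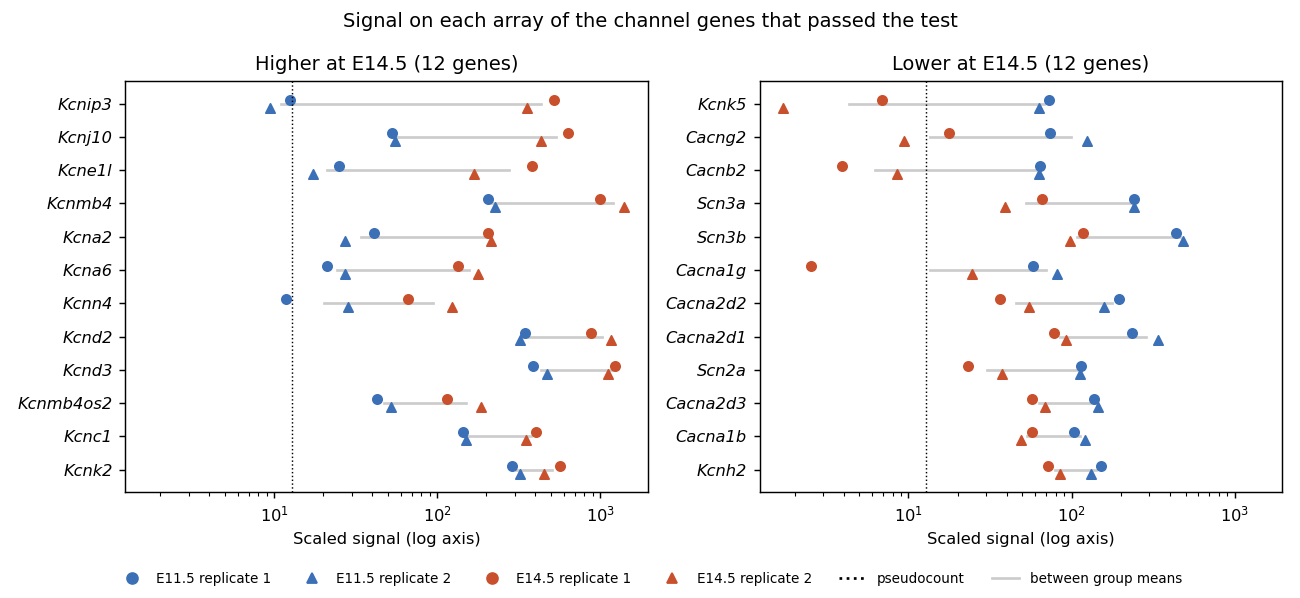
Scaled signal (log axis) on each of the 4 arrays for the 12 channel genes that were higher (left) and the 12 that were lower (right) at E14.5; blue marks are E11.5, red marks E14.5, and the dotted line is the pseudocount of 12.8. Kcnip3, Kcnk5 and Cacnb2 have a group mean left of the dotted line.

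Among inward rectifiers, which pass potassium more easily into the cell than out of it, Kcnj10 stood apart. Kcnj10 forms the main inward rectifier of astrocytes and is also found in oligodendrocyte precursors. Its signals were 53.1 and 55.0 at E11.5 and 638 and 431 at E14.5, a difference of 3.01 ± 0.22 (adjusted p = 1.1e-05). The ratio of the mean signals, taken without the pseudocount, was 9.88. The E11.5 arrays were close together and the E14.5 arrays were both several times brighter. Kcnj16, whose product joins that of Kcnj10 in astrocytes, had signals of 27.6 and 8.02 at E11.5 and 52.2 and 52.1 at E14.5. The groups did not overlap, but the E11.5 arrays were far apart and the gene did not pass (1.16 ± 0.40, adjusted p = 0.059). It passed without E11.5 replicate 1 (1.64), with a larger pseudocount (0.67) and with the replicate number as a block (1.16). The other 4 tested inward rectifiers did not pass either and ran from -0.33 to 0.23. Of these, Kcnj11, the pore of channels that close when ATP is plentiful, had signals of 164 and 205 against 221 and 215 (0.23 ± 0.18), and Kcnj3 and Kcnj6, pores opened by G proteins in neurons, had differences of -0.33 ± 0.25 and -0.08 ± 0.28.

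Two-pore-domain channels, which carry the potassium leak that sets the resting voltage, differed in both directions. Kcnk2, a leak channel gated by stretch and lipids and found in astrocytes and neurons, was higher, at 286 and 321 against 567 and 449 (0.71 ± 0.17, adjusted p = 0.012). The groups were separate but less than 2-fold apart, and the call was lost without E14.5 replicate 1 (0.55) and without the trend of variance on signal; without scaling of the arrays the sign turned (-0.04). Kcnk5, a leak channel opened by alkaline conditions, was lower. It went from 72.5 and 63.3 to 6.92 and 1.71 (-2.25 ± 0.38, adjusted p = 0.0020), a fall to below the pseudocount whose size ran from -3.71 to -1.25 with smaller and larger pseudocounts. Kcnk1 (0.43 ± 0.27) and Kcnk10 (-0.28 ± 0.21), both found in astrocytes and neurons, did not pass. Kcnk13, a leak channel of microglia, had signals of 29.8 and 29.9 against 64.2 and 63.6 and missed the threshold (0.84 ± 0.29, adjusted p = 0.060). Dropping the variance trend, or averaging probe sets throughout the fit, brought it past the threshold at the same value. The other probe set of Kcnk13 was too dim to be tested, so no values of this gene itself were averaged.

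The largest family was the pores of voltage-gated potassium channels. Of these, 31 genes were on the array, 19 were tested, 5 were higher, 1 was lower and 13 did not pass. Kcnd2 and Kcnd3 encode the Kv4 pores that carry the fast A-type current and that bind Kcnip proteins. Kcnd2 had signals of 344 and 323 at E11.5 and 873 and 1169 at E14.5 (1.56 ± 0.17, adjusted p = 0.00012). Kcnd3 had 389.5 and 473 against 1241 and 1112 (1.43 ± 0.15, adjusted p = 0.00011). For both genes the E14.5 arrays lay well above the E11.5 arrays. Without scaling of the arrays both calls were lost (0.80 for Kcnd2 and 0.66 for Kcnd3). The third Kv4 pore, Kcnd1, had overlapping groups and did not pass (0.16 ± 0.32). Of the Kv4 partners, Kcnip3 was higher, while Kcnip1 (-0.25 ± 0.24) and Kcnip2 (0.60 ± 0.25) did not pass, although Kcnip2 passed without E11.5 replicate 1 (0.84).

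Kcna2 and Kcna6 encode Kv1 pores, which open at low voltage and dampen excitability. Kcna2 went from 40.8 and 27.4 to 205 and 214 (2.26 ± 0.24, adjusted p = 0.00012). Kcna6 went from 21.0 and 27.3 to 134 and 178 (2.18 ± 0.27, adjusted p = 0.00029). Other tested Kv1 genes had differences from -0.36 (Kcna3) to 0.92 (Kcna7) and did not pass. Kcna7 passed when replicate 1 of E11.5 (1.31) or of E14.5 (1.12) was left out, and with the replicate number as a block (0.92). Kcnc1, a fast-gating Kv3 pore of rapidly firing neurons, was 144 and 151 at E11.5 and 403 and 352 at E14.5 (1.28 ± 0.17, adjusted p = 0.00046), and lost its call without scaling (0.54). Kcnh2, a pore of the ERG group known for repolarising the heart, was the Kv gene that was lower, at 151 and 132 against 71.9 and 85.4 (-0.76 ± 0.22, adjusted p = 0.030). Leaving out replicate 1 of E11.5 (-0.67) or of E14.5 (-0.65), or the filter, ended that call. Its relative Kcnh3 had overlapping groups (0.04 ± 0.22), and Kcnh8 just missed the threshold (-0.89 ± 0.31, adjusted p = 0.067). Kcnh8 passed without scaling (-1.50), with probe sets averaged (-0.89) and without E14.5 replicate 2 (-1.23). Since Kcnh8 has only 1 probe set, the averaging altered other genes and not its own values.

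Among potassium channels opened by calcium or sodium, 1 of 5 tested genes was higher. Kcnn4, an intermediate-conductance channel of blood and immune cells and some precursors, had signals of 11.8 and 28.6 at E11.5 and 66.0 and 124 at E14.5 (1.70 ± 0.38, adjusted p = 0.0089). Its call was lost without scaling (1.08). Kcnn2, a small-conductance relative, had 57.5 and 61.1 against 108 and 102 and fell just short of the threshold (0.71 ± 0.23, adjusted p = 0.051). Kcnn2 passed under 5 alternatives, at 0.71 to 0.81: quantile normalization, a smaller pseudocount, the higher filter, no variance trend and averaged probe sets. As Kcnn2 has only 1 probe set, the averaging left its own values as they were. Kcnn1 (-0.24 ± 0.29) and the sodium-activated Kcnt1 (-0.16 ± 0.32) did not pass.

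Sodium channel genes that passed were all lower at E14.5, and they included the member with the smallest adjusted p of any fall. Scn3b encodes a beta subunit that is abundant in the embryonic brain. It had signals of 439 and 484 at E11.5 and 118 and 97.7 at E14.5 (-1.98 ± 0.18, adjusted p = 4.1e-05). Scn3a, the pore typical of embryonic neurons, went from 243 and 242 to 65.6 and 39.3 (-2.0 ± 0.24, adjusted p = 0.00026). Scn2a, a pore of immature axons, went from 115 and 113 to 23.3 and 37.6 (-1.57 ± 0.28, adjusted p = 0.0025). The groups were well apart for each of these genes, with mean signals 3.74 to 4.63 times higher at E11.5. Scn8a, the main pore of mature axons, had overlapping groups (84.3 and 130.2 against 104 and 90.8; -0.10 ± 0.25). Scn1a (-0.73 ± 0.33) and Scn2b (-0.43 ± 0.26) did not pass, although Scn1a passed without scaling (-1.26). Of the 14 neuronal markers given above 13 were also lower, with a median difference of -2.24 over the list, while Map2 did not pass (0.22 ± 0.12). Their part in the sodium channel results was not tested.

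Calcium channel genes had 7 of 20 tested members lower (35%, against 13.6% of all genes tested) and none higher. Lower genes were 5 of 13 tested auxiliary subunits (38.5%) and 2 of 7 tested pores (28.6%). The alpha2delta subunits, which bring calcium channels to the surface, were lower for 3 of 4 genes. Cacna2d1 went from 236 and 338 to 77.7 and 93.1 (-1.59 ± 0.22, adjusted p = 0.00062). Cacna2d2 went from 196 and 159 to 36.5 and 54.5 (-1.72 ± 0.25, adjusted p = 0.00081). Cacna2d3 went from 137 and 145 to 57.6 and 68.7 (-1.02 ± 0.22, adjusted p = 0.0078). In each case both E14.5 arrays were below both E11.5 arrays, whereas the groups of Cacna2d4 overlapped (-0.36 ± 0.39). Cacnb2, a cytoplasmic beta subunit, was at 63.9 and 63.3 on the E11.5 arrays and below the pseudocount on both E14.5 arrays (3.92 and 8.47; -2.02 ± 0.37, adjusted p = 0.0031), and its difference ran from -3.13 to -1.13 with smaller and larger pseudocounts. Cacng2, known as stargazin, anchors AMPA-type glutamate receptors at synapses. Its signals were 73.7 and 125 at E11.5 and 17.7 and 9.36 at E14.5 (-2.07 ± 0.35, adjusted p = 0.0020; -2.74 to -1.33 over the pseudocounts). Cacng4, a relative found in oligodendrocyte precursors, did not pass, with 542 and 613 against 509.6 and 623 (-0.03 ± 0.16). The sign of this small difference turned when E11.5 replicate 2 or E14.5 replicate 1 was left out. Cacng7 (0.08 ± 0.25) and Cacng8 (0.11 ± 0.24) did not pass either.

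Among the calcium pores 2 of 7 were lower, and both calls were lost when 1 array was left out. Cacna1b, the N-type pore of presynaptic terminals, had signals of 103 and 120.1 against 57.6 and 49.2 (-0.91 ± 0.24, adjusted p = 0.020). Leaving out replicate 2 of E11.5 (-0.82) or of E14.5 (-0.82), or the filter, ended the call. Cacna1g, a T-type pore that opens near the resting voltage, had 57.7 and 81.1 against 2.54 and 24.6 (-1.77 ± 0.45, adjusted p = 0.017). It lost the call without E11.5 replicate 2 (-1.56), without a filter and without the variance trend, and its value was -1.12 without E14.5 replicate 1. Cacna1h, another T-type pore, did not pass (229 and 184 against 141 and 137; -0.52 ± 0.19, adjusted p = 0.076). It passed without scaling (-1.24) and in the fit with probe sets averaged (-0.52). Its own other probe set was too dim to enter that average. Cacna1a, Cacna1c, Cacna1d and Cacna1f had differences from -0.63 to 0.35 and did not pass. Cacna1a, at -0.63, passed without E14.5 replicate 1 (-1.42) and was at 0.17 without E14.5 replicate 2.

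Channels that textbooks place in glia and in neurons were compared as lists. On the glial list, 2 of 7 tested genes were higher (Kcnj10 and Kcnk2; 28.6%, against 14.3% of all genes tested), none was lower and 5 did not pass. On the neuronal list, 6 of 24 tested genes were lower (25%, against 13.6% of all genes), 3 were higher (12.5%, against 14.3%) and 15 did not pass. The lower genes were Scn2a, Scn3a, Scn3b, Cacna1b, Cacna2d2 and Cacng2, and the higher ones were Kcna2, Kcnc1 and Kcnd2. In these calls the neuronal list was divided by ion. Of its 11 sodium and calcium members 6 were lower and none higher. Of its 13 potassium members 3 were higher and none lower, but Kcnc1 and Kcnd2 lost their calls without scaling. On the glial list Kcnk2 also lost its call without scaling, where its sign turned (-0.04), and without the variance trend. Both lists were written with earlier results of these data known. The median difference was 0.43 for the glial list and -0.29 for the neuronal list, a gap of 0.71 between the medians, beside 0.03 for all genes tested. That gap ran from 0.64 without E14.5 replicate 1 to 1.26 without E14.5 replicate 2, and was 0.44 with the filter at the 60th percentile. The count of 2 higher glial genes fell to 1 without E14.5 replicate 1. Several genes of the glial list are also expressed in neurons, and Cacng5 (53.8 and 61.9 against 113 and 51.0) and Cacng4 had overlapping groups.

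**Figure D3:**
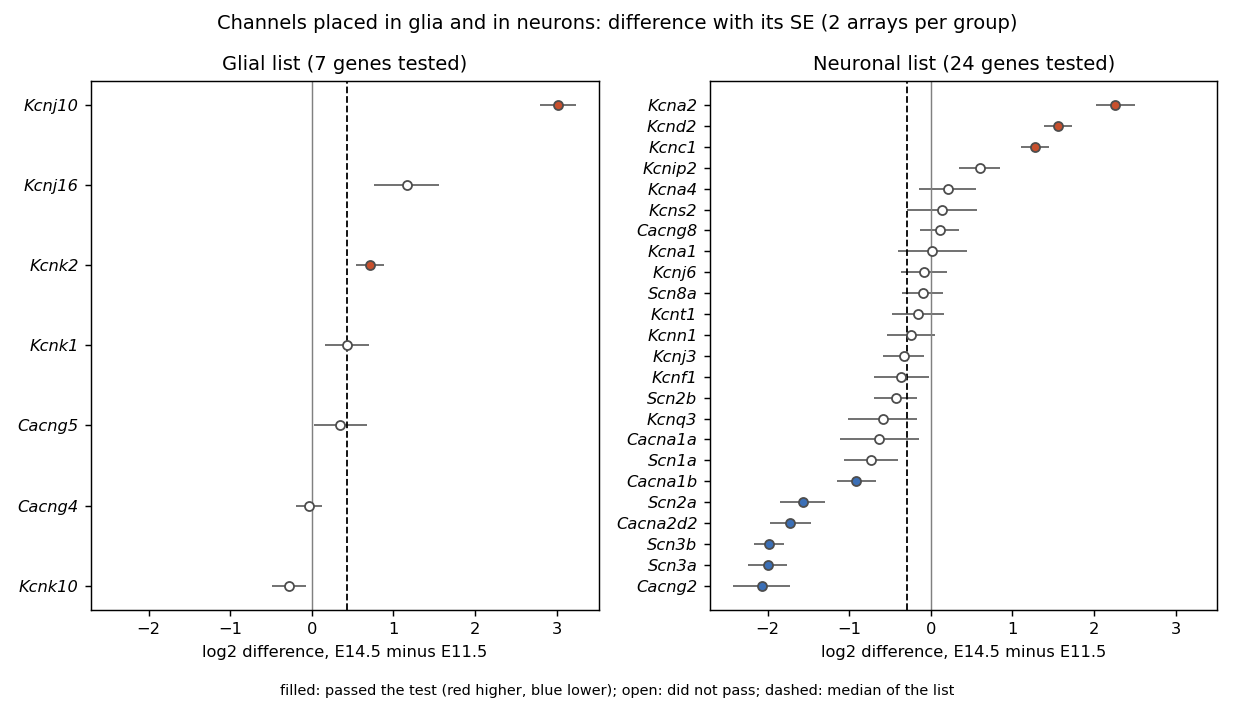
Log2 difference with its standard error for the tested genes of the glial list (left) and the neuronal list (right); filled points passed the test, and the dashed line is the median of the list. Kcnj10 at 3.01 lies far above the rest of the glial list, and the neuronal list runs from Cacng2 at -2.07 to Kcna2 at 2.26.

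Different probe sets of a gene can read different parts or forms of its transcript, and 10 of the 24 genes that passed had others that were tested. Of these 19 other probe sets, 18 had the same sign as the one that stood for the gene, 10 also passed in that direction, 9 did not pass and none passed in the opposite direction. Kcnd2, Kcnip3, Scn2a and Scn3b passed at every tested probe set. Their sizes still differed, since the other probe set of Kcnip3 read 71.4 and 62.4 at E11.5 and 371 and 241 at E14.5 (1.97 ± 0.23). For Kcnc1 none of 3 others passed, and for Kcna6 neither of 2 did. Averaged over probe sets, the difference was 0.64 for Kcnc1, 1.06 for Kcna6, 1.08 for Kcnd3 and -0.95 for Cacna2d1, and all 24 genes still passed. Cacnb1, a beta subunit, did not pass at the probe set that stood for it (-0.08 ± 0.27), but another of its probe sets was lower (-2.04 ± 0.41, adjusted p = 0.0047).

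**Figure D4:**
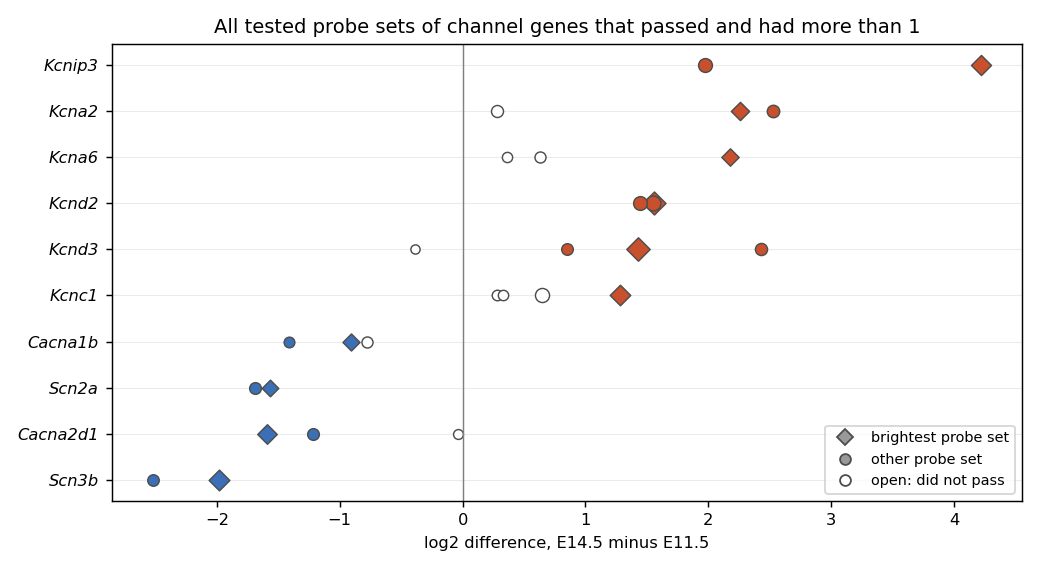
Log2 difference of every tested probe set of the 10 channel genes that passed and had more than 1; diamonds are the probe sets that stand for the gene, circles the others, open symbols did not pass, and larger symbols mark higher signals. Scn3b, Scn2a, Kcnd2 and Kcnip3 have filled symbols throughout, while Kcnc1 and Kcna6 rest on 1 probe set.

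A list of partners of these channels and of other channels outside the symbol rule also moved both ways. Of 40 such genes listed 35 were on the array, 27 were tested, 5 were higher and 7 lower. These are 18.5% and 25.9%, against 14.3% and 13.6% of all genes tested. Cntnap2, which clusters Kv1 channels beside nodes, fell from 1333 and 1515 to 154 and 95.2 (-3.42 ± 0.20, adjusted p = 3.6e-06), and its value averaged over probe sets was -1.82. Ank3, the ankyrin that anchors sodium channels at the initial segment, fell from 539 and 555 to 178 and 166 (-1.60 ± 0.16). Its relative Ank2 was higher (1.01 ± 0.14, adjusted p = 0.00054), Nfasc, another initial segment protein, was lower (-1.06 ± 0.20), and Nrcam (0.08 ± 0.13) and Sptbn4 (-1.10 ± 0.38), found at the same site, did not pass. Fgf14 (-1.99 ± 0.36) and Fgf13 (-1.34 ± 0.16), which bind the tails of sodium channels, and Rem2 (-1.95 ± 0.31), which inhibits calcium channels, were lower too. Fgf14 was below the pseudocount on both E14.5 arrays (6.56 and 6.18), and its value ran from -3.03 to -1.12 over the pseudocounts and was -1.24 averaged over probe sets. Cntn1, an adhesion protein that partners sodium channels and is also made by oligodendrocyte precursors, rose from 304 and 267 to 2278 and 3186 (3.19 ± 0.17, adjusted p = 2.0e-06). The sodium leak channel Nalcn (1.15 ± 0.20), the proton channel Hvcn1, known from immune cells (1.5 ± 0.42), and the channel Tpcn1 (1.11 ± 0.18) were higher. These are channels themselves and not partners, so Ank2 and Cntn1 were the only partners that were higher. The calls of Hvcn1 and Fgf14 were lost without E11.5 replicate 1 (0.95) and without E11.5 replicate 2 (-1.87) respectively, and that of Nalcn without scaling (0.41). The median of the list was 0.01. The Kv4 partners Dpp6 (-0.05 ± 0.21) and Dpp10 (0.54 ± 0.26), did not pass.

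The 45 untested channel genes had mean signals of 1.85 to 25.5, below the filter of 27.3. The filter used the mean of all 4 arrays, and 20 of the 74 tested genes had a mean below it in 1 group. Such genes entered through the brighter group, and the matching count over all genes tested was not made. Of the 20, 8 passed the test: Kcnip3, Kcne1l, Kcna6, Kcnn4, Kcnk5, Cacng2, Cacnb2 and Cacna1g. These 8 are part of the counts by ion given above. Just inside the filter lay Kcnj13 (27.5), Kcnab1 (27.6) and Kcng4 (28.4), and just outside it Kcnv2 (25.5), Kcnj4 (24.9) and Kcnq5 (24.6). The untested genes include 9 of 15 inward rectifiers, 12 of 31 Kv pores and 5 of 11 sodium channel genes, as well as Kcna5 and Scn7a of the glial list.

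The sequence before the start site is shown for the 3 largest rises and the 3 largest falls, since regulators of a gene can bind there. These are RefSeq sequences of build GRCm38.p6, the 250 bases before the most upstream start, read along the strand of the gene. The files name no genome build, and the arrays did not measure these sites. Capitals mark the E-box CAGCTG, which proneural and Olig factors can bind. The windows lie at chr2:127522095-127522344 (minus strand) for Kcnip3, chr1:172340960-172341209 (plus) for Kcnj10 and chrX:142306199-142306448 (minus) for Kcne1l. For the falls they lie at chr14:20181783-20182032 (minus) for Kcnk5, chr15:78119281-78119530 (minus) for Cacng2 and chr2:14604056-14604305 (plus) for Cacnb2.
Kcnip3: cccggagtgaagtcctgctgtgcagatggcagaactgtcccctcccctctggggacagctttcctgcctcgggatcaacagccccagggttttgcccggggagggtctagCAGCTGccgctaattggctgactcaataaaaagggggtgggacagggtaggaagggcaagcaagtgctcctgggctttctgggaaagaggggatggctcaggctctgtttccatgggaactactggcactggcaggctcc
Kcnj10: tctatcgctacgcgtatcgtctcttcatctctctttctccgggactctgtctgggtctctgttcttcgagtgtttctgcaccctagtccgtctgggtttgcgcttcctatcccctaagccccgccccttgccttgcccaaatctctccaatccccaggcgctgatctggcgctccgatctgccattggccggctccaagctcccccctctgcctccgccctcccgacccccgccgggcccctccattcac
Kcne1l: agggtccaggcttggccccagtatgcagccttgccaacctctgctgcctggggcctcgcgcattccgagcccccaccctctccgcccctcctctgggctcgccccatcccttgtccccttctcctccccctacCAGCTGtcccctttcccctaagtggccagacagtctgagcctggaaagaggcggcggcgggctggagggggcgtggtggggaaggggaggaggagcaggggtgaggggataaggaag
Kcnk5: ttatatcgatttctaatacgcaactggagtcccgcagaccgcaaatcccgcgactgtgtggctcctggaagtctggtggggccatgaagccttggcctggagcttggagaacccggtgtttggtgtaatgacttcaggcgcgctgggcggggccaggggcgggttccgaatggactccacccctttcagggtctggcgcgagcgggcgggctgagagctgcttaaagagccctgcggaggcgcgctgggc
Cacng2: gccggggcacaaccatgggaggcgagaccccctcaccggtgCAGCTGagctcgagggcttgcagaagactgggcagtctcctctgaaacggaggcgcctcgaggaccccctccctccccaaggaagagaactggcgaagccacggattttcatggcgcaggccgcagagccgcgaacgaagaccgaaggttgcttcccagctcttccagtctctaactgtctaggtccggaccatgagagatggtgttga
Cacnb2: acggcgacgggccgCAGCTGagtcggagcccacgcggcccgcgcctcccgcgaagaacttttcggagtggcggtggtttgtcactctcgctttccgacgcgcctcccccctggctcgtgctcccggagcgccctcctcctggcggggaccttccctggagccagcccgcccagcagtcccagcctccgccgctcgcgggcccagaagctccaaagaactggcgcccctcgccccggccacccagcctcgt

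Windows were found for all 12 higher genes and for 9 of the 12 lower ones. On both strands, CAGCTG was present in 4 of 12 and 4 of 9, in 26.4% of 91 channel genes and in 12.7% of the 27025 genes in the table. No window of either group held the STAT site TTCCNGGAA (0.918% of all windows), the nuclear factor I palindrome (0.0407%), the core of the element bound by the repressor REST (0.0296%) or TATAAA (13.0%). The windows were rich in G and C, with a median of 62.2% for the higher and 73.2% for the lower genes against 52% in the whole table, although Scn2a (29.6%) and Kcnk2 (42.4%) lay below it. A match of letters is not a binding site, and absence says only that these letters are not in this window.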

How the data were processed

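Total RNA from 4 samples of mouse telencephalic neuroepithelial cells was hybridised to Affymetrix arrays after 5 µg was copied into biotin-labelled cRNA, per the labels' protocols. Each deposited value is a linear intensity. The authors made them with GCOS, Affymetrix software, per the submitters' processing notes, which state no version; the settings were not given in the sources used here. The table held 45101 probe sets, of which 64 controls were set aside.

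Each array was multiplied by 1 factor (0.932, 0.691, 1.13 and 1.68) so that its 2% trimmed mean became 174. The filter on mean signal was the 40th percentile (27.3), and 27022 probe sets passed it. The 25th percentile of the scaled values, 12.8, was added as a pseudocount before log2; it shrinks differences of dim genes. Limma 3.58.1 in R 4.3.3 was run by lmFit and eBayes with a variance trend (2 residual and 7.99 prior degrees of freedom, two-sided), with Benjamini-Hochberg adjustment over all 27022. The fit was also run on simulated data with independent errors drawn from its own variance trend. Such data cannot show whether the p-values hold for arrays that may be technical replicates.

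Genes were named from the platform annotation where a probe set named 1 gene. The text names all channel genes that passed, the tested glial-list genes, up to 8 neuronal-list genes and the 6 members with the highest signal that did not pass, those beside the filter and up to 8 partners; any others were picked with their values in view. The channel genes, lists and tests were chosen with earlier results of these data known. Alternatives covered scaling, pseudocount, filter, variance trend, probe sets, each array left out and the replicate number as a block.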

Additional observations from a re-analysis of the deposited data

How the results depend on the processing

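With 2 arrays per group, precision is limited by their number. With 1 array left out, the lone array of a group is assumed to vary like the others. Such fits, and the fit with the replicate block, gave smaller adjusted p than the main fit for many channel genes. A call kept or gained there therefore says little about how stable a result is. Of the 24 genes that passed, 20 kept their call under every alternative on scaled values that gave a value, the exceptions being Cacna1b, Cacna1g, Kcnh2 and Kcnk2. Leaving out 1 array gave 12 to 15 genes higher, 10 to 14 lower, 1 to 3 glial genes higher, 5 to 8 neuronal genes lower and a gap between glial and neuronal medians of 0.64 to 1.26. Without scaling, 6 channel genes were higher and 1 glial gene was; without the variance trend, 1 glial gene was higher. With the filter at the 60th percentile, 7 genes were lower, and the gap was 0.44; fewer genes were tested there. Over all genes, 1850 were higher and 1756 lower, against 255 and 2175 without scaling and 1150 and 1101 without the variance trend. The deviations of same-numbered arrays correlated at 0.0041, so the replicate numbers give no sign of pairing; with the replicate block, 14 channel genes were higher and 12 lower, and 3 glial genes were higher.

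Of the 74 tested genes, 19 turned sign without scaling, of which 1, Kcnk2, had passed. The 19 included Kcnk2 (-0.04), Cacng5 (-0.28), Kcnk1 (-0.19), Kcnip2 (-0.09), Cacng8 (-0.54), Cacng7 (-0.67), Kcnj11 (-0.50) and Kcnh3 (-0.68). Quantile normalization turned 1 gene, Cacng4 (0.0018), averaging of probe sets 3, and the other alternatives on all 4 arrays none. With 1 array left out, 24 of 74 genes turned sign at least once, none of which had passed. They included Cacng4 (-0.17 to 0.11), Cacng5 (-0.14 to 0.84), Scn8a (-0.38 to 0.18), Kcnt1 (-0.46 to 0.14), Kcnj6 (-0.27 to 0.11), Cacng7 (-0.33 to 0.49) and Kcnh3 (-0.24 to 0.33). Of the 50 genes that did not pass, 12 passed under at least 1 alternative. Apart from the filter, the cause of these changes was not tested.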
